A study of Mus musculus with 26 samples.

Results

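Gene expression in the medial joint compartment was compared between DMM and sham-operated mice 8 weeks after surgery, using 6 of the 26 RNA pools of a time course (3 DMM pools and 3 sham pools, chosen by their labels). DMM, destabilization of the medial meniscus, is a surgical model of osteoarthritis in which the ligament that anchors the medial meniscus to the tibia is cut. In sham controls it was left intact. All mice were male C57BL/6, were operated at 12 weeks of age and were 20 weeks old at collection, and the labels give no transgene or drug. Each pool joined RNA of 3 mice and was read on 1 Affymetrix array, so that a value is that of a pool and the spread between single mice is not seen. The tissue was a block of the medial side of the knee, after muscle outside the joint had been taken off. It held the tibial plateau and femoral condyle with subchondral bone and any osteophytes, the meniscus, synovium, capsule and ligaments. Markers of cartilage, bone, marrow, tendon, fat and muscle were all detected in it. In such bulk tissue, fewer cells of a type and less RNA per cell cannot be told apart. Values are the deposited log2 signal, and a ratio is the mean of the DMM pools minus the mean of the sham pools on that log2 scale. The other 20 pools (unoperated mice and the DMM and sham pools of 2, 4 and 16 weeks) served to estimate the spread and as context.

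Osteoarthritis involves the whole joint. Cartilage loses aggrecan and type II collagen to proteases of the metalloproteinase and ADAMTS families, while synovium, capsule and ligament can thicken and lay down collagens, small leucine-rich proteoglycans and matricellular proteins. Wnt antagonists, insulin-like growth factor and the serine protease HtrA1 belong to the signals and enzymes studied in this disease. Skeletal muscle attaches next to the joint, and its contractile genes are expressed so strongly that a small piece of muscle in a tissue block can move many transcripts. For that reason a fit that carries a score of the muscle gene signal of the pools was run beside the main one. Its ratios are given for most of the genes and lists described.

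The muscle genes turned out to be the group with the largest differences, and 3 of their promoters are shown because these genes moved together. Each line gives the 250 bases before the transcription start from RefSeq (GRCm38.p6), 5′ to 3′ on the gene's own strand. Capitals mark CAGCTG (an E-box of the kind that MyoD-family factors bind), TATAAA on either strand, and the CArG box bound by serum response factor. Acta1, skeletal alpha-actin, lies at chr8:123894776-123895025 on the minus strand, Myl1, a fast myosin light chain, at chr1:66945057-66945306 on the minus strand, and Mylpf, the fast regulatory light chain, at chr7:127211358-127211607 on the plus strand.
Acta1: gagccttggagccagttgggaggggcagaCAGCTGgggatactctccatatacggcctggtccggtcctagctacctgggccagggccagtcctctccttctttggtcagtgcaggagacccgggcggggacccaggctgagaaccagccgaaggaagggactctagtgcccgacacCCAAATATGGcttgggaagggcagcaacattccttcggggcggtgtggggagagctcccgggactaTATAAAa
Myl1: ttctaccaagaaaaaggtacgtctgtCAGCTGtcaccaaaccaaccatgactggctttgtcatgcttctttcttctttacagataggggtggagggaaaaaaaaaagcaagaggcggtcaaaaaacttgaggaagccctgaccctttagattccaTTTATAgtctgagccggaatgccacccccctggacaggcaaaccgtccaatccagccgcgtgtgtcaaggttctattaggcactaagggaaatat
Mylpf: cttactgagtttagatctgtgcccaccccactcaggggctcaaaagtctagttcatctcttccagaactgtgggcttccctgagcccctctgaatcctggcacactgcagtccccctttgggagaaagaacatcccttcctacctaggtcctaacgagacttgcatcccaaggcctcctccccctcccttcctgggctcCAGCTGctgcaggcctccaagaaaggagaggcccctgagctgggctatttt
Of the 27 tested genes of the muscle list, 20 had a promoter in the RefSeq table. A gene was counted when any of its promoters held the motif. CAGCTG was found for 9 of them (45%), against 14.7% of all 27025 genes with a promoter of that length and 14.2% of the tested genes with one. The CArG box was found for 3 (15%, against 1.62% of all these genes) and the MEF2 site for 2 (10%, against 0.592%). TATAAA was found for 4 (20%, against 14.3% of all these genes and 8.61% of the tested ones). CAGCTG was also found for 7 of the 19 genes of the glycolysis and glycogen list (36.8%). These matches describe the letters of the windows and are not binding sites measured in these samples.

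The signal of muscle genes did not overlap between the groups. The muscle score, the mean log2 signal of 28 contractile genes of fast skeletal muscle, was 9.98, 10.42 and 10.86 in DMM pools 1, 2 and 3, against 12.01, 11.73 and 11.20 in sham pools 1, 2 and 3. Every DMM pool lay below every sham pool, and the groups came closest at pool 3. The difference of the means was -1.22, with an exact two-sided permutation p = 0.1, which is the smallest p that 3 against 3 pools allow. The summed signal of the list ran between 49083 and 91046 in DMM pools, against 115860 to 188430 in sham pools. The score was not a stable property of an operation: its mean was 11.36 over the DMM pools of 16 weeks and 10.67 over the sham pools of that week, and 9.99 in unoperated mice. Across all conditions, 1332 probe sets followed the score from pool to pool within conditions, so that a second fit with the score as a covariate was run for each gene. Its slopes come from the spread of pools within all conditions. The compared groups shared no range of scores, so a ratio with the score extrapolates these slopes. Whether a ratio kept in that fit would remain at equal muscle signal was not tested.

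**Figure D1:**
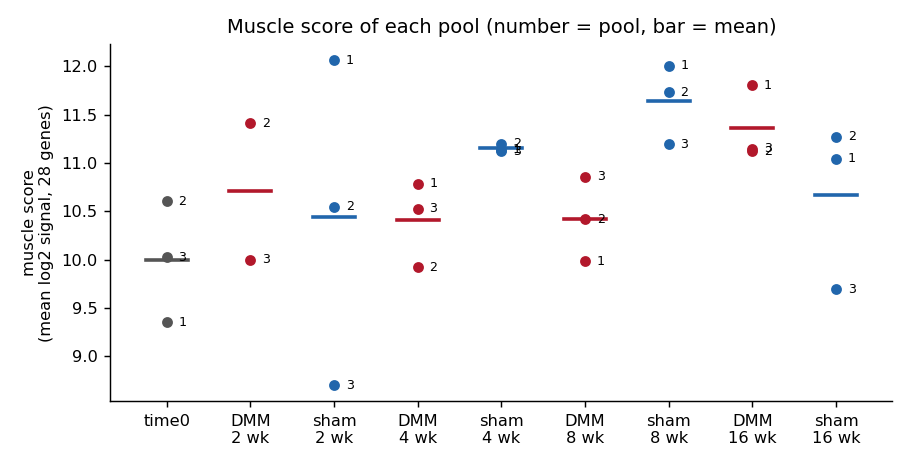
Muscle score (mean log2 signal of 28 contractile genes, vertical axis) of each pool by week after surgery, DMM left of sham at each week. At 8 weeks the 3 DMM pools lie between 9.98 and 10.86 and the 3 sham pools between 11.20 and 12.01, while at 16 weeks the mean of the DMM pools is above that of the sham pools.

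The pools also differed in ways that the operation does not label. Sham pool 3 stood apart on the first principal component of the 6 pools, at 34.5 against -9.15 and 8.98 for sham pools 1 and 2, with DMM pools at -19.7, -15.2 and 0.55. Pools of the same number deviated from their group means together, with correlations of 0.48, 0.33 and 0.56 for numbers 1, 2 and 3. A paired fit with the number as a block, on the 6 pools alone, is therefore given beside the fit over all 26 arrays. This pairing was chosen after seeing these values, and the labels do not say what a number shares. At the other weeks, pools of the same number did not all correlate best with each other. Many adjusted p-values below are from the paired fit and depend on this choice. The fit over all arrays called 1 probe set. The Gapdh ratio, a sign of RNA integrity or labelling, is the log2 signal of the 3′ control probe set minus that of the 5′ one. It was 0.56, 0.44 and 0.29 in DMM pools, against 0.31, 0.35 and 0.23 in sham pools, on the log2 scale. The difference of the means was 0.13 (exact two-sided permutation p = 0.3). The part of the Gapdh ratio in the results below was not tested beyond a fit that carried it as a covariate.

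Across 22482 tested probe sets, 1 (0.00445%) passed an adjusted p of 0.05 in the limma fit over all arrays, and it was lower in DMM. At an unadjusted p under 0.05 there were 1007 higher and 1717 lower probe sets. With the muscle score as a covariate, 0 probe sets (0%) passed in limma and 0 in limma-trend, with 1870 higher and 2196 lower at an unadjusted p under 0.05. The paired fit called 189 probe sets (0.841%), 78 higher and 111 lower in DMM. These stood for 98 genes, of which 46 were higher (0.4% of 11488 genes) and 52 lower (0.453%). In the fit with the score over all arrays, all 46 kept a positive ratio, and the 46 lower genes that were not part of the score all kept a negative one. At an unadjusted p under 0.05 in that limma fit, 16 of the higher and 32 of these lower genes passed. Among all tested genes 9.01% were higher and 10.5% lower there. The genes were called on these same pools, so a kept sign is not independent evidence. Without sham pool 1, which had the highest muscle score, 536 probe sets passed in the fit over all arrays, and without any other 8-week pool 0 did.

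The probe set that passed belonged to Paics, an enzyme of purine synthesis, and its other probe sets did not share the difference. The probe set that passed, of the x_at kind, measured 11.20, 11.18 and 11.23 in DMM pools, against 11.59, 11.65 and 11.72 in sham pools. The groups were tight and far from overlapping, and the ratio was -0.45 ± 0.064 (SE, limma adjusted p = 0.0167, and 0.037 in the paired fit). Paics was brighter on another probe set, at 12.27, 12.22 and 12.15 in DMM pools, against 12.28, 12.25 and 12.11 in sham pools, where the ratio was 0.00. The suffix marks probes that may also match other transcripts, so that the difference cannot be assigned to Paics. The ratio was -0.38 with the muscle score (limma adjusted p = 0.122). Each of the 12 probe sets with the smallest p was lower in DMM, and among the next ones were those of Sdhd, a subunit of succinate dehydrogenase (-0.39 ± 0.071), Slc25a5, a mitochondrial ADP/ATP carrier (-0.39 ± 0.073), and Kif5b, a kinesin heavy chain (-0.47 ± 0.088), with adjusted p = 0.0988 for each.

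Genes of fast skeletal muscle were lower in DMM throughout. Of the 27 tested contractile genes, 26 had all DMM pools below all sham pools (7.74% of all tested genes did) and none the reverse, and their median ratio was -1.23, against 0.01 over all tested genes. The fit over all arrays called none of them, and the paired fit called 6 (it called 0.453% of all tested genes lower). Myh2, the type IIa myosin heavy chain, measured 7.94, 8.23 and 9.68 in DMM pools, against 11.50, 10.47 and 10.13 in sham pools. Its groups did not overlap, but DMM pool 3 came within 0.44 of sham pool 3. In the fit over all arrays the ratio of -2.08 had a standard error of 1.01 (limma adjusted p = 0.415). Its adjusted p in the paired fit was 0.0692. Neb, nebulin of the thin filament, measured 9.03, 9.42 and 10.04 in DMM pools, against 11.34, 11.41 and 10.74 in sham pools. Its level was 3.19-fold lower (-1.67 ± 0.252, SE, paired limma adjusted p = 0.0326, and 0.344 in the fit over all arrays). Myl1 and Mylpf, whose promoters are shown above, had ratios of -1.42 (paired adjusted p = 0.0461) and -1.32 (0.0453). Acta1 measured 12.00, 12.67 and 13.01 in DMM pools, against 14.10, 13.92 and 13.36 in sham pools. Its ratio was -1.23, with a paired adjusted p of 0.0628. Ldb3, a Z-disc protein, had a ratio of -1.26, and Trdn, triadin of the calcium release unit, one of -1.21, and both passed in the paired fit (0.0295 and 0.0286). The score is made of the contractile genes, and with it their median ratio was -0.03. Of the 10 slow-fibre genes, 6 were tested. Their median ratio was -0.26 (-0.02 with the score), and 3 had all DMM pools below all sham pools.

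Some lower genes kept much of their ratio in the fit with the muscle score, where no probe set passed after adjustment. The scores of the groups did not overlap, so these ratios are extrapolated and do not separate muscle signal from the operation. Cryab, alpha B-crystallin, a small heat shock protein of muscle and other tissues, measured 9.86, 10.08 and 10.33 in DMM pools, against 11.51, 11.30 and 11.52 in sham pools. All DMM pools lay at least 0.97 below the lowest sham pool, and the level was 2.55-fold lower (-1.35 ± 0.0994, paired adjusted p = 0.00502). Its ratio with the score was -0.81 (limma unadjusted p = 0.00353). Pdk4, the pyruvate dehydrogenase kinase that limits glucose oxidation, measured 8.78, 9.02 and 9.35 in DMM pools, against 9.80, 10.06 and 10.03 in sham pools. Its groups did not overlap either, and the ratio was -0.92 without the score (paired adjusted p = 0.0105) and -0.56 with it. Ccng1, cyclin G1, a p53 target, was 10.85, 10.92 and 11.11 in DMM pools, against 11.55, 11.74 and 11.59 in sham pools. The ratio was -0.67 (paired adjusted p = 0.0215) and -0.42 with the score. Tob1, an antiproliferative protein, kept nearly its whole ratio, -0.44 without and -0.43 with the score (paired adjusted p = 0.0396).

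**Figure D2:**
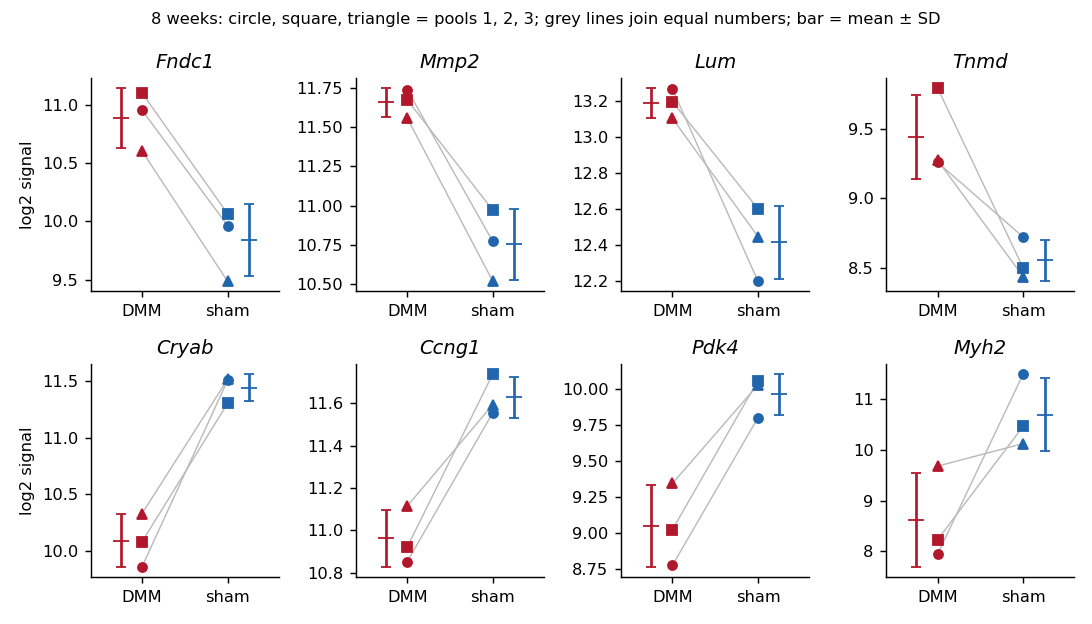
Log2 signal (vertical axis) of 8 genes in each 8-week pool, DMM left and sham right, with grey lines joining pools of equal number and bars giving the mean and SD. In the upper row (Fndc1, Mmp2, Lum, Tnmd) all DMM pools lie above all sham pools, and in the lower row (Cryab, Ccng1, Pdk4, Myh2) all lie below.

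Genes of sugar metabolism had lower levels in DMM as well. Of 19 tested genes of glycolysis and glycogen, 19 had a negative ratio and 14 had all DMM pools below all sham pools (7.74% of all tested genes did). Their median was -0.41, and -0.18 with the muscle score. In the limma fit with the score, 0 were higher and 5 lower at an unadjusted p under 0.05, beside 9.01% and 10.5% of all tested genes. The paired fit called 3 of them (it called 0.453% of all tested genes lower). Pgm1, phosphoglucomutase, had a ratio of -0.72 (0.0324), Gyg, glycogenin, which primes glycogen, -0.41 (0.0461), and Ppp1r3c, a glycogen-targeting phosphatase subunit, -0.63 (0.0396, and a ratio of -0.42 without sham pool 2). With the score their ratios were -0.28, -0.37 and -0.30. The muscle isoenzymes Pgam2 and Eno3 had the lowest ratios, -1.34 and -1.34, and with the score these were -0.13 and 0.01. Gapdh, often taken as a reference transcript, measured 13.58, 13.57 and 13.78 in DMM pools, against 13.99, 13.93 and 13.99 in sham pools. The groups did not overlap, and the ratio was -0.32 without and -0.24 with the score. Of 24 tested genes of oxidative phosphorylation, 10 had all DMM pools below all sham pools, and the median of -0.15 was 0.00 with the score. Cycs, cytochrome c, was the member called in the paired fit, at 12.73, 12.66 and 12.81 in DMM pools, against 13.15, 13.17 and 13.38 in sham pools (-0.50 ± 0.071, adjusted p = 0.0286).

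Genes of fibroblasts and their matrix were among the genes with the largest positive ratios. Fndc1, a fibronectin type III domain protein, measured 10.95, 11.10 and 10.60 in DMM pools, against 9.96, 10.06 and 9.49 in sham pools. Each DMM pool was about 1 log2 unit above the sham pool of its number, and the level was 2.07-fold higher (1.05 ± 0.0699, SE, paired limma adjusted p = 0.00349, and 0.173 in the fit over all arrays). Fitted with the score, the ratio was 0.75 (limma unadjusted p = 0.0103). The 10 genes with the largest positive ratios among those whose pools did not overlap (6.56% of all tested genes had all DMM pools above) were Fndc1, Angptl1, Col14a1, Mmp2, Mmp3, Erdr1, Tnmd, Fbln7, Lrrc15 and Lum. The paired fit called 9 of them (it called 0.4% of all tested genes higher). Erdr1, read by a probe set of the x_at kind and low in sham pool 3 alone, was the exception (0.89, or 0.38 without that pool). These genes were picked for large, non-overlapping ratios in the same pools that the paired fit tests. A high share of calls follows from that choice and is not independent evidence.

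Collagens of the fibrillar and related families were higher in part. Of 18 tested, 9 had all DMM pools above all sham pools (6.56% of all tested genes did) and none the reverse. Their median ratio was 0.21, and the paired fit called 3 (it called 0.4% of all tested genes higher). Col14a1, a collagen on the surface of fibrils, measured 11.15, 11.33 and 10.91 in DMM pools, against 9.96, 10.58 and 10.10 in sham pools. All DMM pools were higher, by a ratio of 0.92 ± 0.0959 (paired adjusted p = 0.0135) that was 0.58 with the muscle score. Col6a1 and Col6a3, chains of the pericellular collagen VI, had ratios of 0.51 (0.037) and 0.51 (0.047), and 0.28 and 0.25 with the score. Col3a1, of the fibrils of soft tissue, measured 14.33, 14.51 and 14.30 in DMM pools, against 13.64, 13.98 and 14.03 in sham pools, and missed the threshold in the paired fit (0.50, 0.0524). The chains of type I collagen, which bone also makes in quantity, had overlapping groups. The median over the 18 genes was 0.02 with the score. In that limma fit 1 was higher and 0 lower at an unadjusted p under 0.05, beside 9.01% higher and 10.5% lower of all tested genes.

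Of 12 tested small leucine-rich proteoglycans, which coat collagen fibrils, 6 had all DMM pools above all sham pools (6.56% of all tested genes did). The median ratio was 0.19 (0.03 with the score). In the limma fit with the score, 1 was higher and 1 lower at an unadjusted p under 0.05, beside 9.01% and 10.5% of all tested genes. Lum, lumican, measured 13.27, 13.20 and 13.10 in DMM pools, against 12.20, 12.60 and 12.45 in sham pools. Its DMM pools were at least 0.50 above the highest sham pool (0.77 ± 0.0996, paired adjusted p = 0.0234), and the ratio was 0.54 with the score. Fmod, fibromodulin, had a ratio of 0.50 and Aspn, asporin, one of 0.55, with paired adjusted p = 0.0552 for each, and 0.24 and 0.28 with the score. In the other direction Epyc, epiphycan of cartilage, had a ratio of -0.67 with overlapping groups, or -0.33 without sham pool 3. Among 10 tested tendon and ligament genes, 5 had all DMM pools above, and the median ratio was 0.21 (0.12 with the score). In the limma fit with the score, 0 of them were higher and 1 lower at an unadjusted p under 0.05. Tnmd, tenomodulin, a marker of mature tendon cells, measured 9.26, 9.79 and 9.27 in DMM pools, against 8.72, 8.50 and 8.44 in sham pools. Each DMM pool exceeded each sham pool, and the level was 1.85-fold higher (0.89 ± 0.128, paired adjusted p = 0.0286), with a ratio of 0.66 with the score. Scx, the tendon transcription factor, and Postn, periostin, had ratios of 0.26 and 0.52 and were not called.

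Of 16 tested matrix proteases and inhibitors, 8 had all DMM pools above all sham pools and 1 all below, beside 6.56% and 7.74% of all tested genes. The paired fit called 5, all higher (it called 0.4% of all tested genes higher). Mmp2, gelatinase A, measured 11.74, 11.67 and 11.56 in DMM pools, against 10.77, 10.97 and 10.52 in sham pools. The nearest pools of the groups were 0.59 apart (0.90 ± 0.0843, paired adjusted p = 0.0105), and the ratio was 0.61 with the muscle score. Mmp3, stromelysin 1, measured 10.11, 10.04 and 10.23 in DMM pools, against 9.39, 9.50 and 8.80 in sham pools, where pool 3 was the lowest. Its ratio was 0.90 (paired adjusted p = 0.0453) and 0.63 with the score. Htra1, a secreted serine protease, was 11.50, 11.63 and 11.34 in DMM pools, against 10.76, 10.93 and 10.69 in sham pools. Its ratio was 0.69 ± 0.0685 (paired adjusted p = 0.0105) and 0.41 with the score. The inhibitors Timp1 and Timp2 were also higher, by 0.61 (0.0295) and 0.48 (0.0453), with ratios of 0.39 and 0.26 in the fit with the score. The collagenase Mmp13 and the aggrecanase Adamts5, both linked to cartilage loss, had ratios of -0.06 and -0.19 with overlapping groups. The median of the list was 0.19, and 0.01 with the score. In the limma fit with the score, 1 was higher and 2 lower at an unadjusted p under 0.05, beside 9.01% and 10.5% of all tested genes.

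Of 23 tested growth factors and Wnt antagonists, 9 had all DMM pools above all sham pools and 4 were called higher in the paired fit. Of all tested genes 6.56% and 0.4% were. The median ratio was 0.17 (0.10 with the score). In the limma fit with the score, 1 was higher and 1 lower at an unadjusted p under 0.05, beside 9.01% and 10.5% of all tested genes. Igf1, insulin-like growth factor 1, measured 10.99, 11.06 and 10.91 in DMM pools, against 10.49, 10.55 and 10.36 in sham pools. The groups were apart by 0.36 at their nearest pools (0.52 ± 0.0678, paired adjusted p = 0.0234), and the ratio was 0.26 with the score. Sfrp4, a secreted Wnt antagonist, had a ratio of 0.46 (0.0291) that stayed at 0.39 with the score, whereas that of Dkk3, of the Dickkopf family, was 0.74 (0.0185) and 0.27 with the score. Ccn5, a matricellular protein, had a ratio of 0.52 (0.0255) and of 0.39 with the score. In the synovial list of 10 tested genes, 5 had all DMM pools above and 2 passed in the paired fit, the hyaluronan synthase Has1 (0.53, 0.0401) and podoplanin, Pdpn (0.61, 0.0222), a membrane protein of lining fibroblasts and osteocytes. With the score these were 0.43 and 0.38, and the median of the list was 0.01, against 0.12 without the score. In the limma fit with the score, 0 of the list were higher and 1 lower at an unadjusted p under 0.05. The study took its 16 real-time PCR genes from an earlier report that covered this 8-week time point, so their direction here is not independent evidence. In the limma fit with the score, 1 of the 14 tested was higher and 2 lower at an unadjusted p under 0.05. Of the 14 tested, 9 had all DMM pools above all sham pools, 5 were called higher in the paired fit and the median ratio was 0.51 (0.27 with the score). Among them was Il33, an alarmin cytokine of stromal cells, at 8.33, 8.79 and 8.27 in DMM pools, against 7.88, 7.82 and 7.41 in sham pools. All DMM pools were higher, and the ratio of 0.76 (paired adjusted p = 0.0255) was 0.78 with the score. The sham values lay under the 7.9313 that the mean of a probe set had to exceed to be tested, so the size of this ratio rests on dim readings.

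**Figure D3:**
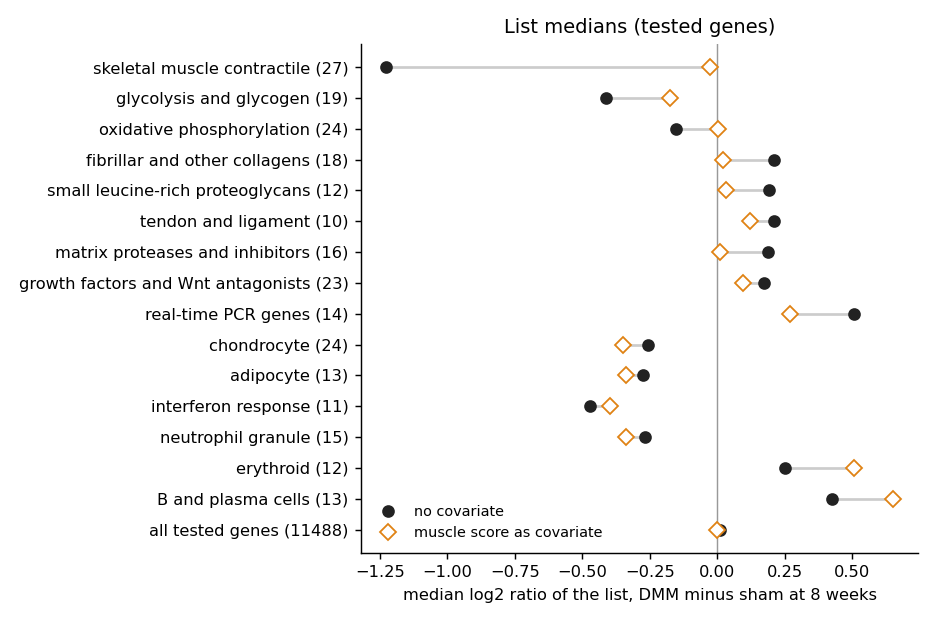
Median log2 ratio, DMM minus sham at 8 weeks (horizontal axis), of the tested genes of 15 lists and of all tested genes, filled without and open with the muscle score as covariate. The muscle list moves from -1.23 to -0.03, the collagens from 0.21 to 0.02, and the chondrocyte list from -0.26 to -0.35.

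Cartilage genes had mostly negative ratios, in part through sham pool 3. Of 24 tested chondrocyte genes, 4 had all DMM pools below all sham pools and 2 all above, none was called in either fit, and the median ratio was -0.26, or -0.12 without sham pool 3. With the muscle score, 12 were lower and 1 higher at an unadjusted p under 0.05, beside 10.5% lower and 9.01% higher of all tested genes. Without sham pool 3, 8 were lower in that fit, beside 3.44% lower and 2.06% higher of all tested genes. Col9a1, a chain of cartilage collagen IX, measured 9.09, 10.06 and 10.49 in DMM pools, against 10.40, 10.44 and 12.50 in sham pools. Sham pool 3 was far above the other pools, the groups overlapped, and the ratio of -1.24 was -0.54 without that pool. Matn3, matrilin 3, measured 9.999, 10.45 and 10.50 in DMM pools, against 10.60, 11.19 and 12.27 in sham pools. Here the groups did not overlap, although sham pool 1 was only 0.10 above the highest DMM pool, and the ratio was -1.03 (paired adjusted p = 0.0538), or -0.58 without sham pool 3, and -1.18 with the score. Ucma, a matrix protein of the upper cartilage zones, was 8.36, 8.47 and 8.68 in DMM pools, against 9.75, 9.14 and 9.12 in sham pools, the highest of these in sham pool 1. The ratio was -0.84 (paired adjusted p = 0.0529) and -0.55 with the score. Acan, aggrecan, had a ratio of -0.04 and Comp, which tendon also expresses, one of 0.36 (0.11 with the score) with all DMM pools above. Of 12 osteoblast and osteocyte genes tested, 1 had all DMM pools above (Pdpn) and 1 all below, beside 6.56% and 7.74% of all tested genes, with a median of -0.06 (-0.17 with the score).

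Marrow and immune genes also moved with sham pool 3. The mean log2 signal of the neutrophil granule list was 13.75, 13.66 and 13.91 in DMM pools, against 13.89, 13.83 and 14.33 in sham pools. Sham pool 3 was the highest, and the median ratio of the 15 tested genes was -0.27, or -0.09 without it. The mean of the B and plasma cell list was 10.62, 10.54 and 10.39 in DMM pools, against 10.57, 10.41 and 9.70 in sham pools. Here sham pool 3 was the lowest, and the median of 0.42 over 13 genes was 0.03 without it. The erythroid list had a median of 0.25 over 12 genes, or 0.04 without sham pool 3, and the interferon list one of -0.47 over 11 genes, or -0.13. In the fit with the score, 12 neutrophil genes were lower, 8 B and plasma cell genes and 11 erythroid genes higher, and 4 interferon genes lower at an unadjusted p under 0.05, beside 10.5% lower and 9.01% higher of all tested genes. Without sham pool 3 these counts were 3, 0, 0 and 0, beside 3.44% lower and 2.06% higher. The medians with the score were -0.34 for the neutrophil, 0.65 for the B and plasma cell, 0.51 for the erythroid and -0.40 for the interferon list, and without sham pool 3 they were -0.19, 0.25, 0.38 and -0.10 in that order. The erythroid list kept most of its median with the score when that pool was left out. None of the genes of these 4 lists was called in either fit. Cd5l, a secreted protein of macrophages, was called in the paired fit and was higher in each DMM pool than in the sham pool of its number (11.07, 11.30 and 10.18 in DMM pools, against 10.70, 10.21 and 8.90 in sham pools, 0.0454), but its groups overlapped, and its ratio of 0.92 was 0.40 without sham pool 3. The adipocyte list of 13 tested genes had a median of -0.27 (-0.34 with the score), and Car3, a carbonic anhydrase abundant in fat and muscle, measured 13.81, 13.76 and 13.91 in DMM pools, against 14.36, 14.26 and 14.38 in sham pools (-0.50, paired adjusted p = 0.0255, and -0.46 with the score).

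**Figure D4:**
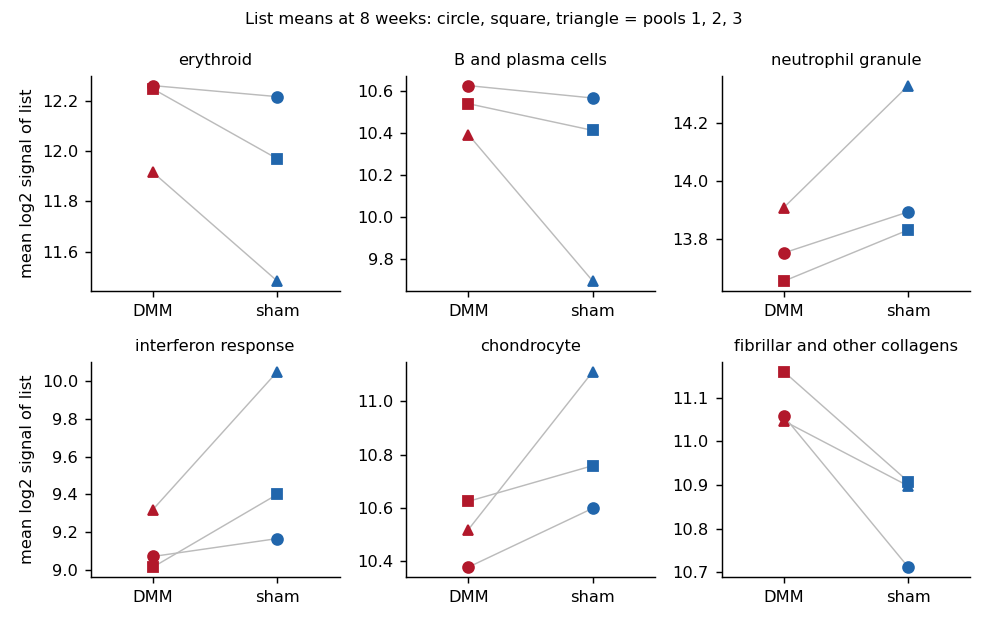
Mean log2 signal (vertical axis) of 6 gene lists in each 8-week pool, DMM left and sham right, with grey lines joining pools of equal number. Sham pool 3 is the lowest in the erythroid and B and plasma cell lists and the highest in the neutrophil, interferon and chondrocyte lists, while in the collagen list all DMM pools lie above all sham pools.

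The study grouped probe sets by their time courses in these same pools, and its clusters 7, 10 and 12 were formed in part from the 8-week values. Their ratios are therefore a description and not independent evidence of a direction. Of 17, 10 and 10 tested probe sets of clusters 7, 10 and 12, 15, 8 and 10 had all DMM pools below all sham pools, and the median ratios were -0.59, -0.71 and -0.76. Of all tested genes 7.74% had all DMM pools below, and the share over all tested probe sets was not taken. The medians with the score were -0.36, -0.12 and -0.25. Clusters 10 and 12 held muscle genes such as Myh4, the type IIb myosin, and Nexn, a Z-disc protein (-0.98, and -0.21 with the score), and cluster 7 held Cfl2, muscle cofilin (-0.59, and -0.36), Ccng1 and Mreg, melanoregulin (-0.67, and -0.33). For some genes of cluster 7 the brightest probe set did not share the difference. The probe set of Gtpbp4, a GTPase of ribosome assembly, had a ratio of -0.59 in the cluster and -0.03 on the brightest probe set, and that of Kif1b, a kinesin, -0.59 and -0.10.

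The difference at 8 weeks was then set against that at 4 weeks, where the matrix genes had higher ratios. The groups of the 2 weeks share no pools. Over weeks 2, 4, 8 and 16 the median ratio of the collagens ran 0.77, 1.10, 0.21 and 0.50, and that of the proteases and inhibitors 0.42, 0.69, 0.19 and 0.46. Over all tested genes it ran -0.03, -0.02, 0.01 and 0.01. These medians are without the muscle score, with which those of the 2 lists at 8 weeks were 0.02 and 0.01. The list medians with the score were not taken at the other weeks. The values with it at 8 weeks are thus not comparable with the 4-week medians. Among the 46 genes called higher at 8 weeks in the paired fit, 42 had a larger ratio at 4 weeks, also without the score. The same share was not taken over all tested genes, so this count has no background to be read against. In the same order Mmp3 had ratios of 2.47, 3.26, 0.90 and 1.30, and Lum had 0.74, 1.18, 0.77 and 1.35. For Tnmd the ratio was 2.20 at 4 weeks. In a contrast of the DMM effect at 8 weeks minus that at 4 weeks, limma called 358 probe sets, 314 of them lower at 8 weeks, which gave 164 genes lower (1.43% of tested genes) and 23 higher (0.2%). Lox, lysyl oxidase, which cross-links collagen, had a ratio of -0.16 at 8 weeks and 1.19 at 4 weeks, a difference of -1.35 ± 0.336 (SE, adjusted p = 0.0486). Spon1, spondin 1, had ratios of -0.08 and 1.28 (0.0469), and Gpm6b, a membrane glycoprotein, 0.36 and 1.85 (0.0478). Of the lists, Col4a2 of basement membranes, Adamts1, Tgfb3 and the glycogen enzyme Ugp2 were called lower at 8 than at 4 weeks, as were 2 secretory genes (Lox among them), 1 circadian gene and 2 probe sets of cluster 7. With the muscle score the contrast called 3334 probe sets. Without single pools the count of 358 ran between 0 and 3628, and a fit of the 4 groups alone gave 0. Cryab, low at 8 weeks, had ratios of 0.19, 0.14, -1.35 and 0.70 over weeks 2, 4, 8 and 16, and the difference between 8 and 4 weeks did not pass (adjusted p = 0.0739). The muscle list had median ratios of 0.41, -0.76, -1.23 and 0.72 at 2, 4, 8 and 16 weeks.

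**Figure D5:**
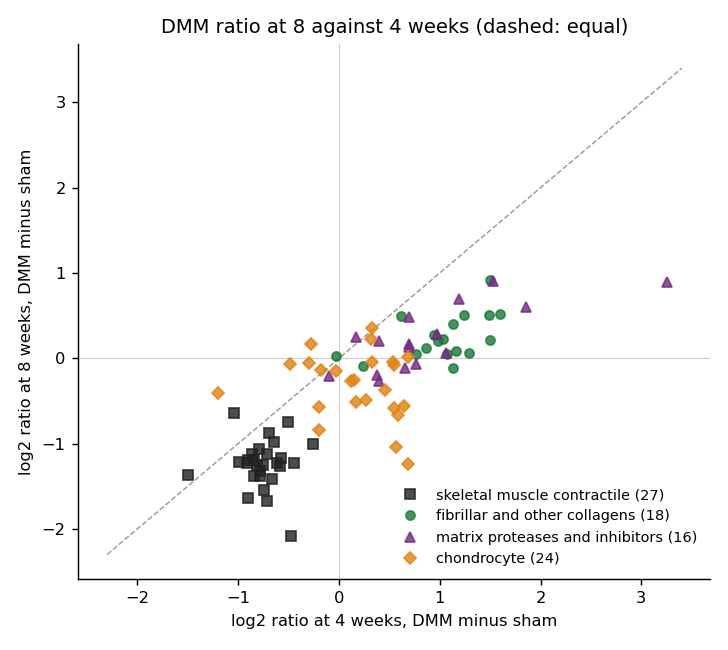
Log2 ratio, DMM minus sham, at 8 weeks (vertical axis) against that at 4 weeks (horizontal axis) for the tested genes of 4 lists, with a dashed line of equal ratios. Both ratios are without the muscle score. Most collagens and proteases lie below the line at positive 4-week ratios, with medians of 1.10 and 0.69 at 4 weeks against 0.21 and 0.19 at 8 weeks.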

How the data were processed

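RNA pooled from 3 mice was labelled and hybridised to Affymetrix mouse genome arrays. The deposited values are log2 signal per probe set, which the authors scaled with systematic variation normalization; the software version is not given in the sources used here. Values were used as deposited. Of 45101 probe sets, 22482 with a mean above 7.9313 (the median of the array medians) were tested, and a gene (11488 tested) was represented by its brightest probe set with 1 symbol (34958 probe sets had 1, 932 several, 9211 none). Array depth has no count, and the number of pools limits the precision.

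DMM was compared with sham at 8 weeks with limma 3.58.1 in R 4.3.3, over all 26 arrays with 1 coefficient per condition (17 residual degrees of freedom, 16 with the muscle score) and Benjamini-Hochberg adjustment over all tested probe sets. Genes in the score were also fitted with it, but their values there are a description, with no test. Labels number the pools but do not say what a number shares, and the methods paired pools at random. The numbers were taken as pairs at 8 weeks because same-numbered pools correlated at 0.48, 0.33 and 0.56, each best with its own number, which did not hold at 2, 4 and 16 weeks. The paired fit (2 residual degrees of freedom, moderated across probe sets) was chosen after seeing the data. It called 189 probe sets, against 1 without the block. Nothing in the labels says how pools relate to separate litters or days, so p-values measure the spread between these pools.

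Named were the genes called, the 10 highest and 10 lowest ratios among genes with non-overlapping groups, the same with the muscle score at an unadjusted p under 0.01, 2 to 4 members of each list, the real-time PCR genes, and members of clusters 7, 10 and 12. Others (the paired calls, the contrast with 4 weeks) were chosen after their values were seen. Members and lists were chosen with earlier results of these data known. The scripts were tested on simulated data.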

Additional observations from a re-analysis of the deposited data

Results flagged for a closer look

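The DMM effect differed between weeks by a test of the difference itself for 358 probe sets at 8 against 4 weeks and for 1 probe set, that of Paics, at 8 against 2 weeks. Among genes named here, the 8-week ratio minus the 4-week ratio was -1.49 for Gpm6b, -1.36 for Spon1, -1.35 for Lox, -1.30 for Pdzrn3, -1.27 for Edil3 and -1.20 for Fat4, -1.03 for Col4a2, -0.77 for Adamts1, -0.77 for Tgfb3, -0.63 for Ugp2 and -0.62 for Tob1. For Serpind1, heparin cofactor II, it was 0.75, the effect being higher at 8 weeks. These counts change with single pools, as the next part gives.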

How the results depend on the processing

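The count of 1 called probe set became 0 with no filter on brightness, with only the compared groups fitted, with the Gapdh ratio or the muscle score as covariate and after quantile normalization, 2 with limma-trend and 830 with array weights. With the replicate block it stayed at 1 over all arrays and was 189 over the 6 paired pools. Leaving out 1 pool gave 0 to 536, the highest without sham pool 1. With the muscle score, the count of 0 became 1 with no filter and 1188 in the paired fit with the replicate block (1 residual degree of freedom), and leaving out 1 pool gave 0 to 883, the highest again without sham pool 1. The muscle score difference of -1.22 ran between -1.45 and -1.01 when pools were left out, and was -0.45 from slow-fibre genes. The cause of these shifts was not tested.

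The contrast of 8 with 4 weeks (358 called) gave 62 with no filter, 0 with only the compared groups fitted, 7009 with array weights, 1 with the Gapdh ratio, 717 with the replicate block, 0 with the block and the 4- and 8-week pools alone, 3334 with the muscle score, and 0 to 3628 with 1 pool left out: 0 without DMM 8-week pool 1, 2 or 3, DMM 4-week pool 2 or 3, sham 8-week pool 2 or 3 or sham 4-week pool 2, 230 without sham 4-week pool 1, 2829 without DMM 4-week pool 1 and 3628 without sham 8-week pool 1.

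Named ratios that changed sign were mostly near 0. The muscle score gave -0.0179 for Fat4, -0.0566 for Edil3, -0.121 for Col4a2, -0.0218 for Tgfb3, 0.00903 for Eno3, 0.0116 for Prkaa2. The Gapdh ratio gave 0.0132 for Gtpbp4, 0.0718 for Kif1b, -0.00218 for Sox6, array weights -0.0358 for Edil3, -0.00459 for Col4a2, quantile normalization 0.00778 for Mmp13 and the mean over all probe sets 0.0382 for Spon1. With 1 pool left out the ratio ran from -0.161 to 0.0243 for Spon1, -0.0686 to 0.257 for Edil3, -0.0296 to 0.102 for Col4a2, -0.763 to 0.0329 for Col10a1, -0.29 to 0.0719 for Kif1b, -0.205 to 0.0588 for Acan. The cause was not tested.

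The Paics probe set lost its call with the muscle score, only the compared groups, quantile normalization, the Gapdh ratio and 5 of 6 left-out pools. Of 111 named entries, the Paics probe set among them, 47 that had not passed in the main fit passed in the paired fit. With array weights 26 did so, and without sham pool 1 11 did. Some of these genes were named because the paired fit called them.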
